A study of Homo sapiens with 12 samples.

Results

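The genes described here are the matrix proteases, their inhibitors and the enzymes that modify and crosslink collagen in BON-1, an established cell line from a human pancreatic neuroendocrine tumour. They were chosen by a rule on gene symbols, with earlier results of these data known. The rule covers every numbered MMP and ADAMTS gene, TIMP1 to TIMP4, LOX and LOXL1 to LOXL4, PLOD1 to PLOD3, and P4HA1 to P4HA3. The rule took 56 of 54261 genes in the table. Of these, 24 reached 1 FPKM (fragments scaled by gene length and library depth) in at least 3 of 12 libraries and were tested, among 13312 genes that did so.

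RNA was sequenced from BON-1 cells cultured alone and from BON-1 cells recovered by flow sorting from co-culture with fibroblasts labelled CAFs, which commonly stands for cancer-associated fibroblasts. The ratio of BON-1 to CAFs was 10:2, 10:4 or 10:6, and each of the 4 groups had 3 libraries. The labels name no genetic change, drug, culture time or clone. Nothing in the labels ties the libraries to separate cultures, so p-values may measure technical spread alone. The origin of the CAFs, the purity of the sort and whether BON-1 cells grown alone were also sorted are unknown here.

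Matrix metalloproteases (MMPs) and ADAMTS proteases cut collagens, proteoglycans and procollagens outside the cell, and TIMPs block the MMPs. Inside the cell, prolyl 4-hydroxylases (P4HA subunits, paired with P4HB) stabilise the collagen triple helix and lysyl hydroxylases (PLOD) prepare it for crosslinking, which LOX and LOXL oxidases then carry out in the matrix. In solid tumours this machinery is best known from fibroblasts, although carcinoma cells express several of its members.

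Between 11703624 and 21882537 reads per library were assigned to genes. The neuroendocrine label held: 8 of 9 marker genes were over the filter, with CHGA (chromogranin A) at 945 to 1374 FPKM, while TPH1 reached no more than 0.251. These markers also differed from BON-1 alone. At 10:6 CHGB, NEUROD1, PCSK1 and SCG2 rose and CHGA, ENO2, INSM1 and SYP fell. CHGA went from 1347 ± 25.9 to 975 ± 39.2 FPKM (SD, n = 3). With length and GC trends removed, PCSK1, ENO2, INSM1 and SYP were no longer called at 10:6. Not all followed the CAF share: NEUROD1 averaged 31.8 FPKM in BON-1 alone and 40.7, 40.4 and 41.2 at 10:2, 10:4 and 10:6. Only SCG2 and CHGA were called at 10:4 against 10:2. Fibroblast markers were present in every group and rose with the CAF share: 14 of 19 were tested, and 9, 13 and 13 rose at 10:2, 10:4 and 10:6 against BON-1 alone (limma, adjusted p under 0.05), with none falling. Summed over 17 of them (without VIM and S100A4, which BON-1 alone already expressed strongly), the level was 36.1 to 39.0 FPKM in BON-1 alone, 69.1 to 72.1 at 10:2, 146 to 149 at 10:4 and 215 to 219 at 10:6. None of the 19 was at 0 in every library. COL1A1 reached 54.97 FPKM. The markers DCN, LUM, POSTN, FAP and FBN1 were under the filter, and their means went from 0.0293, 0.126, 0.0617, 0.0094 and 0.161 FPKM in BON-1 alone to 0.334, 0.533, 0.832, 0.0966 and 0.895 at 10:6. Of 10 leukocyte and endothelial markers 4 were tested, with a summed level of 47.7 to 49.3 FPKM in BON-1 alone and 48.9 to 51.0 at 10:6; 2 rose and 1 fell at 10:6, and CD3E was at 0 in every library. The fibroblast and neuroendocrine markers moved alongside the genes described below, and their part in those results was not tested. In sorted bulk RNA, fewer cells of a type and less RNA per cell cannot be told apart.

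For 17 of the 24 tested genes the RefSeq promoter table (GRCh38.p14) held a sequence; the 7 without one were ADAMTS9, LOXL2, MMP1, MMP2, MMP16, MMP17 and TIMP2. The 250 bases before the start site are shown for P4HA1 and PLOD2, the hydroxylases that rose most, for MMP14, the protease that activates pro-MMP2, and for PLOD3, the hydroxylase that fell most. P4HA1 lies on chromosome 10 from 73007217 to 73096866 and its upstream bases at chr10:73096867-73097116 on the minus strand; PLOD2 on chromosome 3 from 146069440 to 146161184 with chr3:146161185-146161434, minus strand; MMP14 on chromosome 14 from 22836585 to 22847758 with chr14:22836335-22836584, plus strand; PLOD3 on chromosome 7 from 101205984 to 101217581 with chr7:101217582-101217831, minus strand. Capitals mark matches, on either strand, to ACGTG or GCGTG (forms of the hypoxia response core), to the GC box, whose letters are GGGCGG, and to the TATA box, whose letters are TATAAA. The AP-1 letters TGANTCA were also searched. None of these matches overlap in the sequences shown.
P4HA1: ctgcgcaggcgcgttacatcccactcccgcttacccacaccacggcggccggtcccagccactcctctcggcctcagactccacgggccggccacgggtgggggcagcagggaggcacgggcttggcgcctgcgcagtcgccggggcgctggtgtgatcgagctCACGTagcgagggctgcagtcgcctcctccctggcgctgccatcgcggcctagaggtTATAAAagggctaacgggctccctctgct
PLOD2: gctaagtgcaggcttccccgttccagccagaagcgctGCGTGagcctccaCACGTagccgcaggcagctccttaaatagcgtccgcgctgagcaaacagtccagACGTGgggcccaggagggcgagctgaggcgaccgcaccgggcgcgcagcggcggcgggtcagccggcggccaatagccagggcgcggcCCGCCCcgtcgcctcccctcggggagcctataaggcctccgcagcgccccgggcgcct
MMP14: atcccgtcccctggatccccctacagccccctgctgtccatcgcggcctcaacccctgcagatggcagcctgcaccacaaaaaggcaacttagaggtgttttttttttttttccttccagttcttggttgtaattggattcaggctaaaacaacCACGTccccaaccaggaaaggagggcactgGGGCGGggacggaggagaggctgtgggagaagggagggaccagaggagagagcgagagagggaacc
PLOD3: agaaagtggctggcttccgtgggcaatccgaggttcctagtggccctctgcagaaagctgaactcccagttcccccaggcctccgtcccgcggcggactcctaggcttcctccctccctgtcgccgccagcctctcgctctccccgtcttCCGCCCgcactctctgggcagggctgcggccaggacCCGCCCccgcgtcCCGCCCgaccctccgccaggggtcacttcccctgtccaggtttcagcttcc
P4HA1 and PLOD2, both known as hypoxia-inducible genes, hold 1 and 2 ACGTG matches, PLOD2 holds a GCGTG match as well, and MMP14 holds 1 ACGTG match; PLOD3 holds 3 GC boxes and neither hypoxia form. Among 27305 promoters of the same length, 18.7% hold ACGTG, 31.9% GCGTG, 42.3% GGGCGG, 11.1% TATAAA and 6.60% TGANTCA. Among the 17 genes matched, 4 hold ACGTG (MMP14, P4HA1, PLOD2 and TIMP1) and 5 GCGTG (ADAMTS14, PLOD1, PLOD2, TIMP1 and TIMP3). GGGCGG is held by 13, TATAAA by 1 and TGANTCA by 0. PLOD1, which also fell, thus holds a hypoxia form, and so does TIMP1, which was not called on the deposited values. A match describes letters only.

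Of the 3 comparisons with BON-1 alone, 10:4 and 10:6 had the same 4 tested members rising furthest in log2(FPKM + 1). They were the collagen hydroxylases P4HA1 and PLOD2, the oxidase LOXL2 and the procollagen protease ADAMTS2. At 10:2 PLOD2 and P4HA1 rose furthest and ADAMTS9 came next (0.29), while ADAMTS2 (0.27) and LOXL2 (0.13) were not called. PLOD3 and PLOD1 fell at 10:4 and 10:6. With length and GC trends removed the difference at 10:4 was -0.03 for PLOD3 (adjusted p = 0.494) and 0.02 for PLOD1 (adjusted p = 0.688). At 10:2, 3 of 24 members rose (12.5%, against 19.9% of all genes tested) and 0 fell (against 7.46%). At 10:4, 6 rose (25%, against 27.3%) and 2 fell (8.33%, against 18.1%), and at 10:6, 11 rose (45.8%, against 29.7%) and 3 fell (12.5%, against 18.3%). Calls are limma tests on log2(FPKM + 1), adjusted by Benjamini-Hochberg over 13312 genes with a threshold of 0.05. The median log2 difference of the 24 was 0.03, 0.09 and 0.21 at the 3 ratios, where that of all genes was 0.0034, -0.01 and 0.02. ADAMTS2, MMP1 and MMP16 were over the filter only through co-culture libraries, so they had to be higher there. ADAMTS2 and MMP16 were among the 6 that rose at 10:4, and all 3 were among the 11 at 10:6. That selection raised the shares that rose at 10:4 and 10:6. Without these members, calls in either direction were 3, 6 and 11 of 21, against 3, 8 and 14 of 24 with them. With quantile normalization 2 members rose and 1 fell at 10:2, 5 and 3 at 10:4, and 6 and 5 at 10:6. The median log2 difference of all genes was then -0.04, -0.07 and -0.06, below those on the deposited values. With median-of-ratios rescaling 3 members rose and 2 fell at 10:2. Shares of all genes called are not given for these settings, so their counts cannot be set against the shares above. The moderated F test over all 4 groups called 11 of 24 members (45.8%, against 44.4% of all genes). Without ADAMTS2, MMP1 and MMP16 it called 9 of 21. Without the third library of BON-1 alone it called 7 of 24, with no share of all genes given for that fit. The 3 comparisons share the BON-1 alone libraries and are given side by side in the plot of log2 differences.

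**Figure D1:**
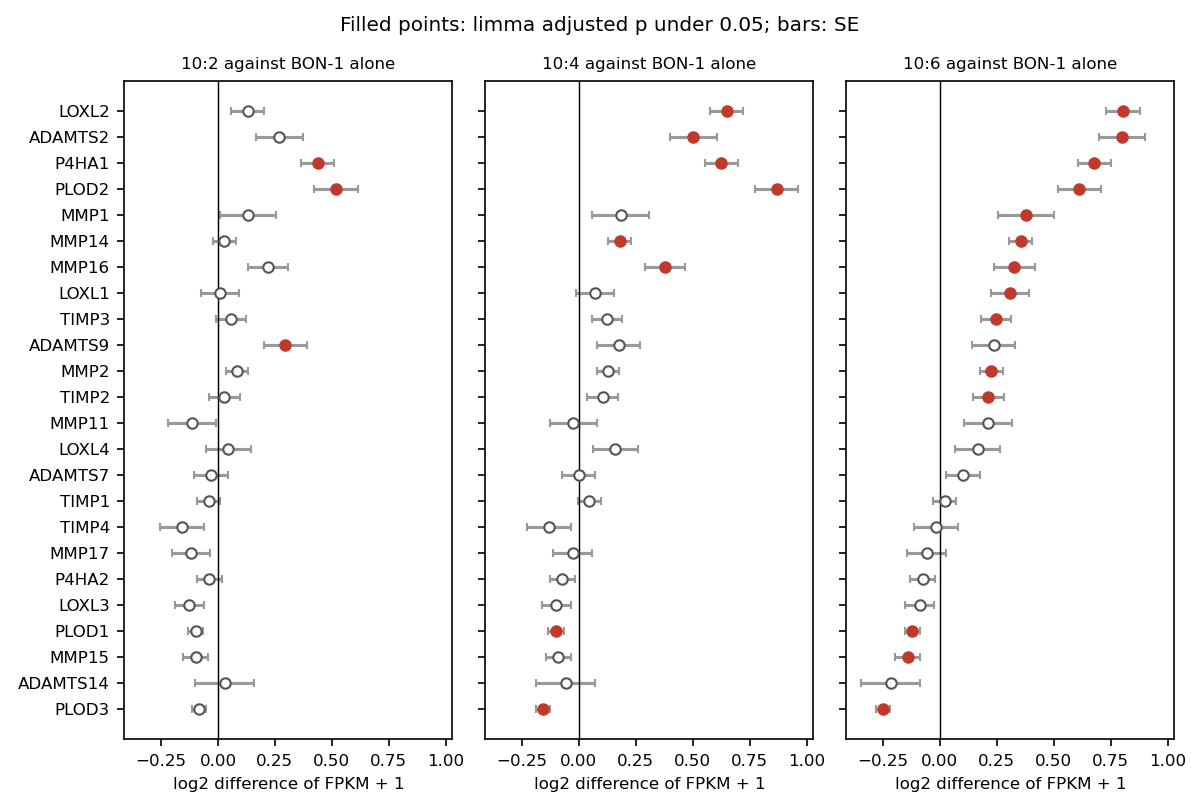
Log2 difference of FPKM + 1 for the 24 tested members in co-culture at 10:2, 10:4 and 10:6 against BON-1 alone (horizontal axis; bars are the SE of the limma fit, n = 3 libraries a group). Filled points passed the adjusted threshold: 3 at 10:2, 8 at 10:4 and 14 at 10:6, with LOXL2 and ADAMTS2 at the top and PLOD3 at the bottom of the 10:6 panel.

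The prolyl 4-hydroxylase subunits parted: P4HA1 rose at every ratio and P4HA2 at none on the deposited values, and the rise of P4HA1 at 10:2 was not called with length and GC trends removed (log2 difference 0.18, adjusted p = 0.0756). P4HA1, an alpha subunit that hydroxylates proline in procollagen, stood at 8.23, 8.37 and 8.39 FPKM in BON-1 alone, 11.7, 10.9 and 12.4 at 10:2, 12.6, 15.3 and 12.4 at 10:4 and 13.6, 13.6 and 14.6 at 10:6. Every co-culture library was higher than every library of BON-1 alone. The log2 difference was 0.44 (SE 0.0722, limma adjusted p = 0.00101) at 10:2, 0.63 (adjusted p = 3.66e-05) at 10:4 and 0.68 (SE 0.0722, adjusted p = 1.94e-05) at 10:6; with length and GC trends removed the values at 10:4 and 10:6 were 0.24 and 0.30 (adjusted p = 0.0128 and 0.00315). P4HA2, the second alpha subunit, stood at 15.1, 14.5 and 14.1 FPKM in BON-1 alone, 15.4, 14.3 and 12.9 at 10:2, 14.1, 13.9 and 13.5 at 10:4 and 14.2, 13.4 and 13.8 at 10:6. The 10:4 libraries lay just below BON-1 alone and the 10:2 and 10:6 libraries overlapped it. The log2 difference was -0.07 at 10:4 and at 10:6 (SE 0.0548, limma adjusted p = 0.299 and 0.287), and with quantile normalization it passed at 10:6 (-0.14, adjusted p = 0.0467). P4HA3 was low, between 0.0926 and 0.428 FPKM. P4HA1 made up 35.9% ± 0.881 of the summed P4HA level in BON-1 alone, 44.5% ± 3.11 at 10:2, 48.8% ± 2.85 at 10:4 and 49.9% ± 1.29 at 10:6 (SD, n = 3).

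Among the lysyl hydroxylases, PLOD2 rose while the far more abundant PLOD1 and PLOD3 fell slightly at 10:4 and 10:6 on the deposited values; with length and GC trends removed, PLOD1 turned sign at 10:4 and neither was called there (adjusted p = 0.688 and 0.494). PLOD2, which hydroxylates lysines in the collagen telopeptides, stood at 3.84, 4.31 and 4.40 FPKM in BON-1 alone, 6.48, 6.14 and 6.61 at 10:2, 7.48, 9.54 and 8.44 at 10:4 and 5.85, 7.33 and 7.71 at 10:6. All co-culture libraries were above those of BON-1 alone, and the 10:4 libraries were the highest as a group. The log2 difference was 0.52 (SE 0.0962, limma adjusted p = 0.00219) at 10:2, 0.87 (adjusted p = 2.71e-05) at 10:4 and 0.61 (adjusted p = 0.000318) at 10:6, and 0.25, 0.42 and 0.27 with length and GC trends removed. PLOD3, which also adds sugars to hydroxylysine, stood at 85.4, 86.8 and 83.2 FPKM in BON-1 alone, 79.99, 80.8 and 80.1 at 10:2, 79.4, 74.5 and 74.9 at 10:4 and 71.99, 70.4 and 71.97 at 10:6. Its groups did not overlap between BON-1 alone and any co-culture. The difference was -0.08 (SE 0.0302, limma adjusted p = 0.06) at 10:2, -0.16 (adjusted p = 0.0014) at 10:4 and -0.25 (SE 0.0302, adjusted p = 4.97e-05) at 10:6 on the log2 scale; at 10:2 it passed the threshold without the first 10:4 library (adjusted p = 0.0282). ZNHIT1, on the opposite strand, overlaps PLOD3 and reached 52.4 FPKM; whether reads were counted by strand is not stated, so the level of PLOD3 is uncertain to that extent.

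PLOD1, the helical lysyl hydroxylase, stood at 89.6, 93.7 and 93.4 FPKM in BON-1 alone, 84.1, 87.2 and 87.0 at 10:2, 87.2, 83.1 and 87.8 at 10:4 and 86.2, 81.6 and 86.4 at 10:6. BON-1 alone was higher than each co-culture with no overlap. The log2 difference was -0.10 (SE 0.0341, limma adjusted p = 0.0519) at 10:2, -0.10 (adjusted p = 0.0325) at 10:4 and -0.12 (adjusted p = 0.0121) at 10:6. These small falls rested on few libraries. At 10:4 the adjusted p was 0.105 and 0.0979 without the second and the third library of BON-1 alone and 0.126 without the second 10:4 library, and at 10:6 it was 0.0569 without the second 10:6 library. At 10:2 it was 0.0496, 0.0454 and 0.0449 without the first library of BON-1 alone, the second 10:4 library and the second 10:6 library. PLOD2 remained a small share of the summed PLOD level, 2.30% ± 0.146 in BON-1 alone, 3.71% ± 0.160 at 10:2, 4.98% ± 0.705 at 10:4 and 4.27% ± 0.609 at 10:6 (SD, n = 3).

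**Figure D2:**
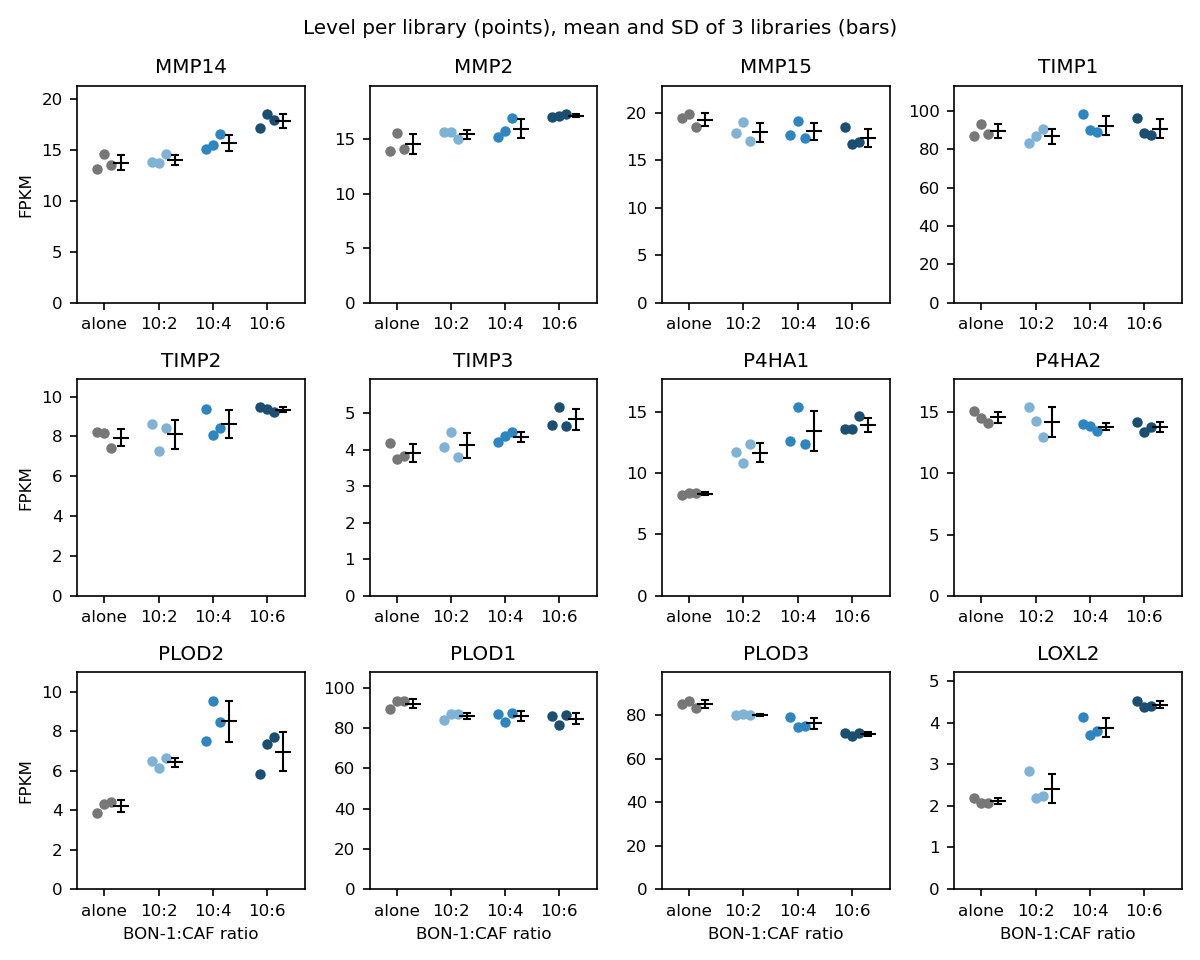
FPKM of 12 members in each library (points) with the mean and SD of 3 libraries (bars), by group; each panel has its own axis from 0. P4HA1, PLOD2 and LOXL2 are higher in the co-cultures, PLOD3 steps down to 71.5 ± 0.918 at 10:6, and TIMP1 overlaps between groups, as does P4HA2 except at 10:4.

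Of the crosslinking oxidases over the filter, LOXL2 rose most and LOXL1 rose at 10:6. LOXL2, which oxidises lysines of collagen IV and other matrix proteins, stood at 2.19, 2.06 and 2.07 FPKM in BON-1 alone, 2.83, 2.19 and 2.22 at 10:2, 4.14, 3.71 and 3.79 at 10:4 and 4.52, 4.37 and 4.39 at 10:6. The 10:4 and 10:6 libraries lay above all others, and the lowest 10:2 library (2.194 FPKM) was just above the highest of BON-1 alone (2.193 FPKM). Against BON-1 alone the log2 difference was 0.13 (SE 0.0741, limma adjusted p = 0.214) at 10:2, 0.65 (adjusted p = 3.32e-05) at 10:4 and 0.80 (adjusted p = 6.86e-06) at 10:6. LOXL1, known for its part in elastic fibre assembly, stood at 1.50, 1.35 and 1.13 FPKM in BON-1 alone, 1.21, 1.43 and 1.37 at 10:2, 1.38, 1.59 and 1.35 at 10:4 and 1.83, 1.92 and 1.87 at 10:6. Only the 10:6 libraries were separate from BON-1 alone (log2 difference 0.31, SE 0.0838, limma adjusted p = 0.00965), and with quantile normalization the adjusted p was 0.166. LOXL1-AS1, on the opposite strand, reached 1.34 FPKM, which is near the level of LOXL1 itself, and ENTPD4 overlaps LOXL2 on the same strand at up to 6.73 FPKM, so both levels are uncertain to that extent.

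LOXL3 stood at 6.14, 6.33 and 6.76 FPKM in BON-1 alone, 5.83, 6.12 and 5.42 at 10:2, 6.26, 5.47 and 6.04 at 10:4 and 6.32, 6.03 and 5.56 at 10:6, lower than BON-1 alone without overlap at 10:2 and overlapping it at 10:4 and 10:6. It was not called on the deposited values (log2 differences -0.13, -0.10 and -0.09, limma adjusted p = 0.162, 0.229 and 0.279), but was with quantile normalization (-0.22, -0.22 and -0.23, adjusted p = 0.0463, 0.0223 and 0.0203). HTRA2 and DOK1, on the opposite strand of LOXL3, reached 28.3 and 14.8 FPKM. LOXL4 averaged 1.18 ± 0.148 FPKM in BON-1 alone, 1.25 ± 0.209 at 10:2, 1.43 ± 0.173 at 10:4 and 1.44 ± 0.141 at 10:6 (SD, n = 3) and passed no test. LOX, the founding member of the family, was under the filter at 0.191, 0.0516 and 0.189 FPKM in BON-1 alone, 0.289, 0.0556 and 0.156 at 10:2, 0.357, 0.433 and 0.457 at 10:4 and 0.543, 0.687 and 0.614 at 10:6, from 4 to 56 reads a library. With no filter on low values it rose at 10:4 and 10:6 (log2 differences 0.31 and 0.50, limma adjusted p = 0.0202 and 0.00138). LOXL2 went from 18.9% ± 0.850 of the summed LOX and LOXL level in BON-1 alone to 22.0% ± 2.11 at 10:2, 29.6% ± 0.606 at 10:4 and 30.9% ± 0.415 at 10:6 (SD, n = 3).

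MMP2, MMP14 and MMP15 together held 81.0% ± 1.10 of the summed MMP level in BON-1 alone and 81.0% ± 0.316 at 10:6 (SD, n = 3). Within it, MMP14 and MMP2 were higher at 10:6 and MMP15 was lower.

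MMP14 is the membrane-type protease that cuts fibrillar collagen and activates pro-MMP2. It stood at 13.1, 14.5 and 13.5 FPKM in BON-1 alone, 13.8, 13.6 and 14.6 at 10:2, 15.0, 15.4 and 16.5 at 10:4 and 17.1, 18.5 and 17.9 at 10:6. The groups overlapped at 10:2, and all libraries at 10:4 and 10:6 were above BON-1 alone. The log2 difference was 0.03 (SE 0.051, limma adjusted p = 0.724) at 10:2, 0.18 (adjusted p = 0.0133) at 10:4 and 0.36 (adjusted p = 0.00017) at 10:6. At 10:4 the adjusted p was 0.0575 without the first library of BON-1 alone, 0.0539 without the third 10:4 library and 0.0533 with quantile normalization. MMP2, the gelatinase that MMP14 activates, stood at 13.9, 15.6 and 14.1 FPKM in BON-1 alone, 15.7, 15.6 and 15.0 at 10:2, 15.2, 15.8 and 17.0 at 10:4 and 17.1, 17.1 and 17.3 at 10:6. The 3 libraries at 10:6 were the highest of the 12, and the log2 difference there was 0.23 (SE 0.0497, limma adjusted p = 0.00286). At 10:4 it was 0.13 (limma adjusted p = 0.054), and 0.0163 and 0.0289 were the adjusted p without the second library of BON-1 alone and the first 10:4 library.

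MMP15, a membrane-type protease close to MMP14, stood at 19.4, 19.8 and 18.5 FPKM in BON-1 alone, 17.8, 19.0 and 17.0 at 10:2, 17.7, 19.1 and 17.3 at 10:4 and 18.5, 16.7 and 16.9 at 10:6. It was lower at 10:6 without overlap, by a log2 difference of -0.14 (SE 0.0543, limma adjusted p = 0.0497). Without the first or the second library of BON-1 alone, the first 10:2, the first or the third 10:4, or the second or the third 10:6 library, the adjusted p lay between 0.0511 and 0.157. MMP16, another membrane-type member, stood at 0.829, 0.909 and 0.855 FPKM in BON-1 alone, 1.23, 1.04 and 1.25 at 10:2, 1.31, 1.38 and 1.58 at 10:4 and 1.18, 1.32 and 1.53 at 10:6. Its co-culture libraries were all above BON-1 alone; the log2 difference was 0.38 (limma adjusted p = 0.0047) at 10:4 and 0.33 (adjusted p = 0.00948) at 10:6, and the sign depends on the treatment of GC content given below. MMP16 too was over the filter only through co-culture libraries; with no filter the adjusted p was 0.0093 and 0.0181. MMP17, which is anchored by a lipid tail, stood at 5.30, 5.10 and 4.85 FPKM in BON-1 alone, 4.00, 5.12 and 4.74 at 10:2, 4.73, 5.36 and 4.82 at 10:4 and 4.82, 5.38 and 4.36 at 10:6 with overlapping groups and passed no test. The share of MMP15 in the summed MMP level went from 32.9% ± 0.488 to 26.9% ± 1.37 between BON-1 alone and 10:6, and that of MMP14 from 23.4% ± 0.750 to 27.6% ± 1.14. Both shares separated without overlap (exact permutation test, two-sided p = 0.1, the smallest that 3 against 3 allows).

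**Figure D3:**
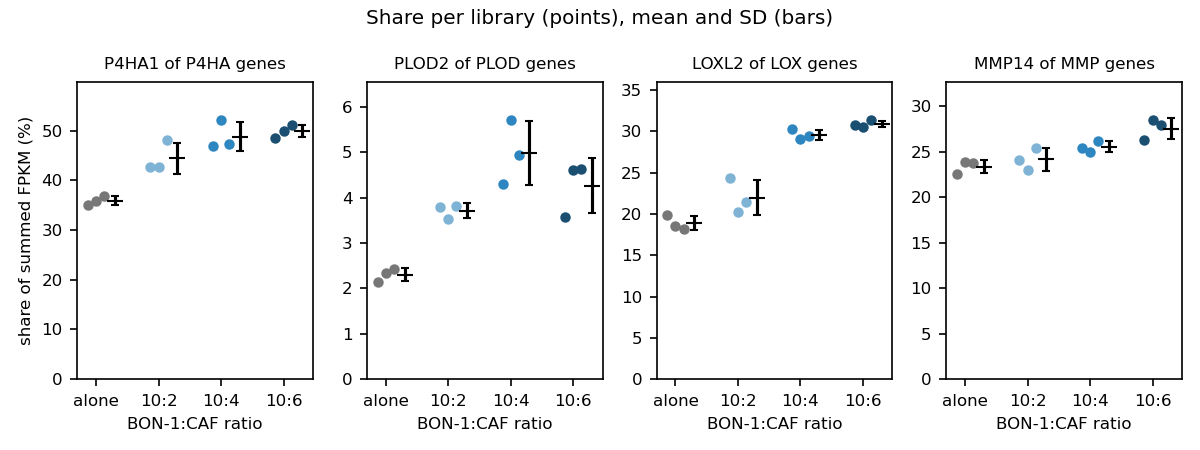
Share (%) of P4HA1, PLOD2, LOXL2 and MMP14 in the summed FPKM of their families, per library (points) with mean and SD of 3 libraries (bars). P4HA1 goes from 35.9% to 49.9% and LOXL2 from 18.9% to 30.9% between BON-1 alone and 10:6, while PLOD2 is highest at 10:4 (4.98%).

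MMP1, the interstitial collagenase, stood at 0.610, 0.645 and 0.565 FPKM in BON-1 alone, 0.832, 0.648 and 0.810 at 10:2, 0.822, 0.579 and 1.11 at 10:4 and 1.22, 1.24 and 0.829 at 10:6, with 15 to 39 reads a library. It was over the filter only through 3 co-culture libraries. It was higher at 10:6 without overlap (log2 difference 0.38, SE 0.124, limma adjusted p = 0.0249, and 0.0476 with no filter on low values). The adjusted p was 0.0582, 0.051 and 0.0683 without the first, the second and the third library of BON-1 alone, 0.0762 and 0.0874 without the first and second 10:6 library, and 0.162 with quantile normalization. MMP11, a stromelysin typical of tumour stroma, averaged 2.16 ± 0.143 FPKM in BON-1 alone, 1.92 ± 0.248 at 10:2, 2.12 ± 0.365 at 10:4 and 2.66 ± 0.353 at 10:6 (SD, n = 3). It passed no test on the deposited values. CHCHD10, on the opposite strand of MMP11, reached 153 FPKM, so the level of MMP11 is uncertain. The other 15 MMP genes were low: MMP8, MMP21 and MMP27 had no read in any library, and the highest was MMP24 with 0.611 to 1.01 FPKM. The gelatinase MMP9 reached at most 0.136 FPKM, the collagenase MMP13 0.678, the stromelysins MMP3 and MMP10 0.149 and 0.264 and the matrilysin MMP7 0.252. Summed over all MMP genes, the level was 58.6 ± 2.05 FPKM in BON-1 alone, 57.9 ± 1.33 at 10:2, 61.2 ± 2.04 at 10:4 and 64.7 ± 0.440 at 10:6 (SD, n = 3).

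The inhibitors were dominated by TIMP1, which did not pass the test at any ratio on the deposited values. TIMP1, a secreted inhibitor of most MMPs, stood at 86.7, 93.4 and 88.1 FPKM in BON-1 alone, 83.1, 86.7 and 90.8 at 10:2, 98.3, 90.1 and 88.7 at 10:4 and 96.4, 88.5 and 87.4 at 10:6. Its groups overlapped throughout, and the log2 difference at 10:6 was 0.02 (SE 0.0515, limma adjusted p = 0.769). TIMP2, which inhibits MMPs and takes part in the activation of pro-MMP2 by MMP14, stood at 8.23, 8.15 and 7.43 FPKM in BON-1 alone, 8.63, 7.29 and 8.44 at 10:2, 9.39, 8.07 and 8.40 at 10:4 and 9.45, 9.35 and 9.24 at 10:6. It rose at 10:6 without overlap (log2 difference 0.21, SE 0.0677, limma adjusted p = 0.0221). That adjusted p was 0.0876 without the third library of BON-1 alone, 0.0541 and 0.0537 without the first and second 10:6 library, 0.0531 with no filter, 0.0691 with median-of-ratios rescaling and 0.178 with quantile normalization.

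TIMP3, which binds to the matrix and also inhibits ADAMTS proteases, stood at 4.20, 3.74 and 3.82 FPKM in BON-1 alone, 4.08, 4.49 and 3.79 at 10:2, 4.21, 4.38 and 4.49 at 10:4 and 4.69, 5.16 and 4.66 at 10:6. The 10:6 libraries were all above BON-1 alone (log2 difference 0.25, SE 0.0649, limma adjusted p = 0.0084); with quantile normalization the adjusted p was 0.403. TIMP4 stood at 4.90, 5.07 and 5.50 FPKM in BON-1 alone and 4.40, 4.44 and 4.72 at 10:2. It stood at 5.34, 4.37 and 4.19 at 10:4 and 4.26, 5.27 and 5.78 at 10:6. The 10:2 libraries lay below BON-1 alone, and the groups overlapped at 10:4 and 10:6. TIMP4 was not called on the deposited values (log2 difference -0.02 at 10:6, limma adjusted p = 0.894). With quantile normalization it was called at 10:4 (-0.28, adjusted p = 0.036). The summed TIMP level was 106 ± 3.44 FPKM in BON-1 alone and 110.03 ± 4.14 at 10:6 (SD, n = 3; exact permutation test, two-sided p = 0.3). TIMP1 held 84.0% ± 0.642 of it in BON-1 alone and 82.4% ± 1.32 at 10:6 (exact permutation test, two-sided p = 0.2).

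In the ADAMTS family the procollagen N-propeptidase ADAMTS2 was low in BON-1 alone and higher in the co-cultures; it was over the filter only through the 10:6 libraries. It stood at 0.292, 0.142 and 0.138 FPKM in BON-1 alone, 0.493, 0.427 and 0.381 at 10:2, 0.614, 0.623 and 0.821 at 10:4 and 1.10, 1.10 and 1.01 at 10:6, from 12 to 114 reads a library. The groups were ordered by CAF share with no overlap between any of them. Against BON-1 alone the log2 difference was 0.27 (SE 0.102, limma adjusted p = 0.0696) at 10:2, 0.50 (adjusted p = 0.00196) at 10:4 and 0.80 (SE 0.102, adjusted p = 7.21e-05) at 10:6, which is 5.61-fold in mean FPKM. In the fit with no filter on low values, which does not select it by its 10:6 level, the adjusted p was 0.0487, 0.000956 and 5.24e-05 at the 3 ratios. ADAMTS9, which cuts the proteoglycans versican and aggrecan, stood at 3.46, 3.04 and 3.21 FPKM in BON-1 alone, 3.99, 4.38 and 4.21 at 10:2, 3.41, 3.78 and 4.18 at 10:4 and 3.54, 4.82 and 3.69 at 10:6. It was higher at 10:2 without overlap (log2 difference 0.29, SE 0.0942, limma adjusted p = 0.0375), and leaving out any 1 of the 6 libraries of BON-1 alone or 10:2 gave an adjusted p between 0.0516 and 0.118; it was 0.173 with quantile normalization, 0.138 with length and GC trends removed and 0.098 with no filter. At 10:6 its adjusted p was 0.0572, and 0.0286 without the first 10:6 library.

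ADAMTS7, which cuts the cartilage protein COMP, was the highest ADAMTS gene at 10.6, 10.5 and 11.4 FPKM in BON-1 alone, 10.5, 11.9 and 9.46 at 10:2, 11.1, 10.0 and 11.4 at 10:4 and 12.3, 11.4 and 11.4 at 10:6, and it passed no test on the deposited values. Its pseudogene ADAMTS7P3 reached 0.580 FPKM, so reads shared between them are possible. ADAMTS14, an N-propeptidase like ADAMTS2, averaged 1.74 ± 0.119 FPKM in BON-1 alone, 1.81 ± 0.388 at 10:2, 1.64 ± 0.253 at 10:4 and 1.38 ± 0.393 at 10:6 (SD, n = 3); at 10:6 its adjusted p was 0.194, and 0.037 without the first 10:6 library. The other 15 ADAMTS genes were low, ADAMTS16 had no read, and the highest value was 0.902 FPKM, in ADAMTS6. With no filter on low values ADAMTS4, ADAMTS6, ADAMTS10 and ADAMTS12 rose at 10:6 (limma adjusted p = 0.000316, 0.00564, 0.0307 and 0.00108). Together with LOX these make 5 of the 28 low members in that fit (17.9%), where 12.8% of all 30723 genes rose; their levels went from 0.0264, 0.431, 0.0107 and 0.0328 FPKM in BON-1 alone to 0.277, 0.849, 0.0776 and 0.187 at 10:6.

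Between the co-cultures, LOXL2, ADAMTS2 and MMP14 were higher and PLOD3 was lower at 10:6 than at 10:2. LOXL2 was higher at 10:4 than at 10:2 (log2 difference 0.52, SE 0.0741, limma adjusted p = 0.00693), 1 of 24 members or 4.17% against 2.88% of all genes; fitted on those groups alone the adjusted p was 0.0739. Without the first 10:4 or the first 10:6 library PLOD2 was called there too (adjusted p = 0.0498 and 0.0385). At 10:6 against 10:2, 4 of 24 members were called (16.7%, against 6.97% of all genes). ADAMTS2, 1 of these 4, was over the filter only through the 10:6 libraries, so it had to be higher there. Without ADAMTS2, MMP1 and MMP16, 3 of 21 members were called. LOXL2 differed by 0.67 (limma adjusted p = 0.000878), ADAMTS2 by 0.53 (adjusted p = 0.0149), MMP14 by 0.33 (adjusted p = 0.00586) and PLOD3 by -0.17 (adjusted p = 0.0115) on the log2 scale. For ADAMTS2 the adjusted p was 0.0534 and 0.0527 without the second 10:2 and the second 10:6 library. P4HA1 differed by 0.24 (adjusted p = 0.0676, and 0.0242 without the second 10:4 library). At 10:6 against 10:4 limma called 0 members, against 0.331% of all genes. An unadjusted p under 0.05 was found for 6 of 24 members, and the share of all genes under it is not given. Limma-voom on recovered reads called 1 member, ADAMTS2, and 276 of 13312 genes. ADAMTS2 was over the filter only through the 10:6 libraries, so it had to be higher there than at 10:4.

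The members differed in how much of their 10:6 difference was already present at the lowest CAF share. As a share of the FPKM difference at 10:6, the difference at 10:2 was 80.2% for PLOD2, 59.4% for P4HA1 and 64.4% for MMP16 among those that rose, and 82.1% for PLOD1, 69.7% for MMP15 and 35.4% for PLOD3 among those that fell. It was 13.2% for LOXL2, 6.69% for MMP14, 1.66% for LOXL1 and 27.7% for ADAMTS2. The 13 fibroblast markers that rose at 10:6 had a median share of 18.5% at 10:2, ranging from -3.89% to 45.5%, and 62.3% at 10:4. PLOD1, PLOD2, MMP15, MMP16 and P4HA1 thus lay above that range, and the other 9 called members within it. Of those above it, PLOD2 and P4HA1 were called at 10:2, and PLOD1, MMP15 and MMP16 were not. VIM and PDGFRA alone set the ends of the range, and the remaining markers ran from 12.7% (THY1) to 23.3% (PDGFRB). PLOD3, MMP2 (34.6%), MMP1 (31.9%) and ADAMTS2 lay above those remaining markers, LOXL1 and MMP14 below them, and LOXL2, TIMP2 and TIMP3 among them. With length and GC trends removed MMP16 turns sign and PLOD1 comes near 0 at 10:6, and MMP1, MMP15 and TIMP3 are not called there, as given below. The shares of these members hold for the deposited values only. At 10:4 the share was 155% for PLOD2, 91.4% for P4HA1 and 76.2% for LOXL2. These shares are descriptions of group means and were not tested.

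**Figure D4:**
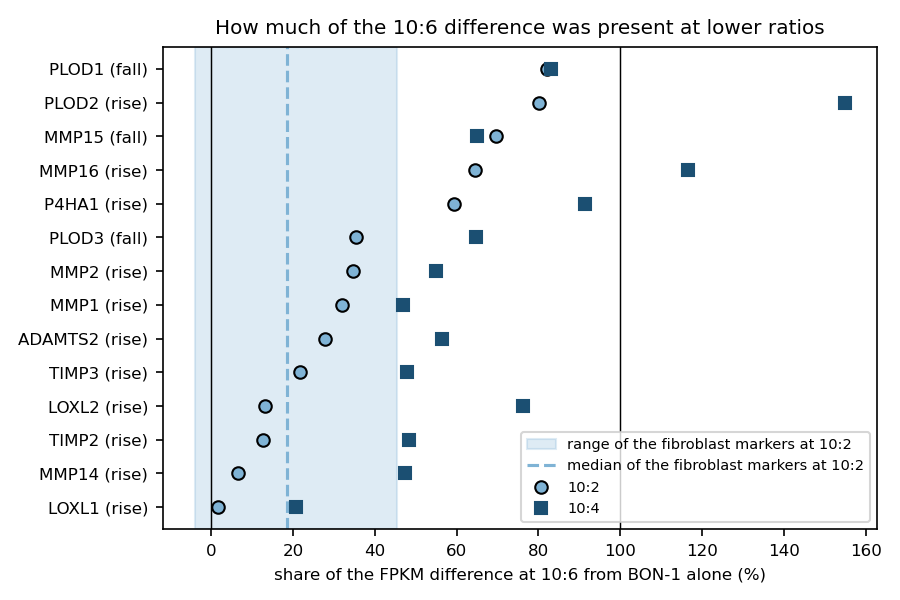
FPKM difference from BON-1 alone at 10:2 (circles) and 10:4 (squares) as a percent of that at 10:6, for the 14 members called at 10:6; the band and dashed line give the range and median of 13 fibroblast markers at 10:2. PLOD1, PLOD2, MMP15, MMP16 and P4HA1 lie right of the band at 10:2, and LOXL2, MMP14 and LOXL1 lie inside it below 20%. The ends of the band are set by VIM and PDGFRA alone.

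GC content moved with the differences of all genes. At 10:6 the 2492 genes of lowest GC content (20% of those with a value) had a median log2 difference of 0.39, with 77.4% rising, and the 2492 of highest GC content had -0.15, with 43.9% falling. PLOD2 (34.4% GC), MMP16 (36.4%) and P4HA1 (40.8%) are the 3 members among the lowest, and PLOD3 (61.7%) is 1 of 7 among the highest. Another 10 members lie in the 20% just below the highest, where 2.73% of genes rose and 36.4% fell at 10:6. The 24 members had a median GC content of 57.5%, against 49.7% for all tested genes with a value. Shares of all genes on the deposited values were not matched for GC content. With trends on length and GC content removed in each library, 2 members rose at 10:2 (8.33%, against 6% of all genes) and 0 fell (against 5.55%); 7 rose at 10:4 (29.2%, against 10.6%) and 0 fell (against 12.5%); 11 rose at 10:6 (45.8%, against 11.5%) and 1 fell (4.17%, against 13.9%). ADAMTS2, over the filter only through the 10:6 libraries, was among these risers at every ratio. Without ADAMTS2, MMP1 and MMP16, calls in either direction were 1, 6 and 11 of 21 members, PLOD3 at 10:6 being the fall. With the trends removed P4HA1 differed at 10:6 by 0.30 (limma adjusted p = 0.00315), PLOD2 by 0.27 (adjusted p = 0.0176) and PLOD3 by -0.12 (adjusted p = 0.0111) on the log2 scale. At 10:2 P4HA1 and ADAMTS9 were no longer called (adjusted p = 0.0756 and 0.138), PLOD2 was still called (adjusted p = 0.0418), and ADAMTS2 was called (0.30, adjusted p = 0.0484).

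LOXL2, ADAMTS2, MMP14, LOXL1, MMP2 and TIMP2 differed more after that removal than before. At 10:6 LOXL2 differed by 0.91 (limma adjusted p = 6.73e-06), ADAMTS2 by 0.86 (adjusted p = 3.67e-05), MMP14 by 0.46 (adjusted p = 7.36e-05), LOXL1 by 0.44 (adjusted p = 0.00279), MMP2 by 0.32 (adjusted p = 0.000377) and TIMP2 by 0.27 (adjusted p = 0.0145). TIMP1 (0.16, adjusted p = 0.014), MMP11 (0.36, adjusted p = 0.0167) and ADAMTS7 (0.18, adjusted p = 0.0445) passed the threshold in that fit and not on the deposited values, as did TIMP1 and MMP2 at 10:4 (0.17 and 0.24, adjusted p = 0.0106 and 0.00303). MMP16 changed sign, to -0.12 at 10:4 and -0.10 at 10:6 (adjusted p = 0.302 and 0.382). PLOD1 was 0.02 at 10:4 (adjusted p = 0.688) and -0.0017 at 10:6 (adjusted p = 0.975), and MMP1, MMP15 and TIMP3 were not called at 10:6 (adjusted p = 0.583, 0.542 and 0.0887). The cause of the trend was not tested.

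**Figure D5:**
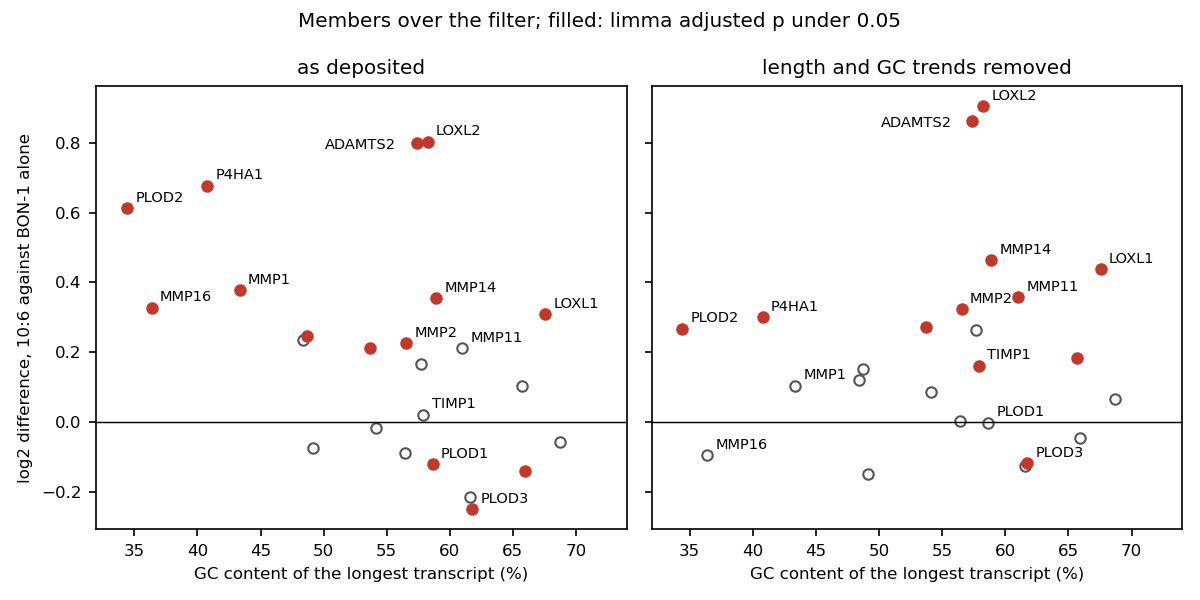
Log2 difference at 10:6 against BON-1 alone for the 24 tested members by the GC content (%) of the longest transcript, on deposited values (left) and with length and GC trends removed (right); filled points passed the adjusted threshold. PLOD2, P4HA1 and MMP16 at the left of each panel come down on removal, MMP16 to -0.10, and LOXL2, ADAMTS2 and MMP14 stay high.

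Other genes of matrix turnover and collagen maturation were followed as a list of 55, of which 36 were tested. At 10:2, 4 rose and 4 fell (11.1% each, against 19.9% and 7.46% of all genes). At 10:4, 6 rose and 8 fell (16.7% and 22.2%, against 27.3% and 18.1%), and at 10:6, 8 rose and 7 fell (22.2% and 19.4%, against 29.7% and 18.3%). The risers included MIA3, which exports bulky procollagen from the endoplasmic reticulum, from 7.14 ± 0.0944 to 13.3 ± 0.381 FPKM at 10:6 (log2 difference 0.81, limma adjusted p = 4.92e-07). The sheddases ADAM9 (0.69, adjusted p = 1.62e-06), ADAM10 (0.74, adjusted p = 4.95e-06) and ADAM17 (0.69, adjusted p = 0.000331) and the protease inhibitor SERPINE2 (0.34, adjusted p = 0.000117) also rose at 10:6. P4HB, the partner subunit of P4HA1, went from 481 ± 7.39 to 442 ± 7.11 FPKM (log2 difference -0.12, limma adjusted p = 0.00151), CTSD, a lysosomal protease, differed by -0.20 (adjusted p = 0.000586) and BSG, an inducer of MMP expression, by -0.13 (adjusted p = 0.00172). After removal of length and GC trends 9 rose and 2 fell at 10:6 (25% and 5.56%, against 11.5% and 13.9% of all genes). MIA3, ADAM9 and ADAM10 were among the risers, while P4HB, CTSD, BSG, SERPINE2 and ADAM17 had limma adjusted p = 0.689, 0.268, 0.47, 0.796 and 0.0688.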

How the data were processed

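The authors deposited a single table of FPKM values with 54261 genes for 12 polyA RNA libraries, and groups and replicate numbers came from the labels. HISAT2, featureCounts and hg38 are named per the submitters' processing notes; versions, strand setting and annotation were not given in these sources. FPKM keeps depth where whole reads were counted: 99.9738% of 267349 nonzero values were whole reads within 1e-07 of a read at a fitted gene length, which gave 11703624 to 21882537 reads a library. Replicates were compared by chi-square over genes, which gave 1.65 to 4.27 per degree of freedom, above counting noise, and all were kept as separate samples.

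The 13312 genes that reached 1 FPKM in 3 or more libraries were fitted as log2(FPKM + 1) in limma (version 3.58.1, under R 4.3.3), using all 12 libraries, a mean for each group and a variance trend. Benjamini-Hochberg adjustment covered all genes of a comparison, with a threshold of 0.05; differences on this scale understate the change of low genes. The 6 pairs of groups and the moderated F test over 4 groups were run, after a check on simulated data. Alternatives were a pseudocount of 0.1, no filter or a stricter one, median-of-ratios and quantile scaling, a robust variance model, only the groups compared, the replicate number as a block, removal of length and GC trends (natural splines with 5 degrees of freedom per library, for 12459 genes or 93.6% with both values, GC content from GENCODE 29), limma-voom on the recovered reads, and leaving out each library. Limma-voom called 4343, 6546 and 6962 of 13312 genes at 10:2, 10:4 and 10:6 against BON-1 alone. Gene positions and upstream sequences came from RefSeq, GRCh38.p14. Shares of a family used exact permutation tests.

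The members and gene lists were chosen with earlier results of these data known. All members over the filter are named; those called in any comparison or with a mean of at least 5 FPKM in a group are given per library, and of the pathway list the 8 genes with the smallest adjusted p at 10:6. Protein sequences were not used here. Tables and plots used Python 3.11.15 with matplotlib 3.10.9, numpy 2.4.6 and pandas 2.3.3.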

Additional observations from a re-analysis of the deposited data

How the results depend on the processing

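Of 30 called differences of single members, 11 alternatives left 290 values with the same direction and call, put 33 above the threshold and turned 6. The 6 belong to MMP16, at -0.12 for 10:4 and -0.10 for 10:6, and PLOD1, at 0.0205 for 10:4, each with length and GC trends removed, with and without the replicate block. Leaving out 1 of 12 libraries kept 331 values and put 29 above the threshold, and turned none. At 10:2 the count of 3 members called became 5 with an FPKM of at least 1 in every library or every library of a group, 5 with median-of-ratios rescaling, 6 with limma-voom, and 1 with the replicate block and trend removal together; it ranged from 2 to 4 with a library left out. At 10:4 against 10:2 the count of 1 became 0 with only the groups compared and 2 with limma-voom, and ranged from 1 to 2. At 10:6 against 10:2 the count of 4 became 7 with no filter and ranged from 3 to 5. At 10:6 against 10:4 the count of 0 became 1 with limma-voom and stayed 0 with any library left out. The F test count of 11 became 7 with quantile normalization and ranged from 7 to 11. At 10:4 and 10:6 against BON-1 alone the counts of 8 and 14 ranged from 7 to 9 and from 10 to 14 with a library left out, and from 7 to 11 and from 11 to 17 over the alternatives, highest with no filter. The replicate numbers did not pair the libraries: deviations of same-numbered libraries correlated between -0.0427 and 0.0458 over 18 pairs, and 2 of 12 libraries correlated best with their own number; with the replicate block alone the counts were 3, 8, 14, 1, 4 and 0 in the 6 comparisons and 9 in the F test. Causes of these changes were not tested. The counts are of members only, without the share of all genes called in the same setting. Depth limits the low members: MMP1 had 15 to 39 reads a library and ADAMTS2 12 to 114, and LOX at most 56.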
